A study of Homo sapiens with 30 samples.

Results

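The chaperonin CCT (also called TRiC) is a closed double ring that folds proteins in the cytosol of human cells, and its ring is built from the products of TCP1, CCT2, CCT3, CCT4, CCT5, CCT6A, CCT7 and CCT8. These 8 genes were taken by symbol from the PRO-Seq table, which holds 20367 symbols, and all 8 were present. Each of them passed the minimum of a mean of 10 reads over the 9 samples, both in the gene body and at the promoter. The measurements come from G401, a malignant rhabdoid tumour cell line that lacks SMARCB1, the gene encoding the SWI/SNF subunit SNF5. The cells carried a lentiviral, doxycycline-inducible construct for EGFP, for OmoMYC or for SNF5, were selected with G418, and were all treated with 1 µg/ml doxycycline for 24 h, so that the EGFP cells, which also received the drug and a vector, are the control for both others. OmoMYC, written OMOMYC in the labels, is an engineered fragment of MYC that interferes with the binding of MYC to DNA. PRO-Seq, which maps RNA polymerases that are engaged in transcription, was available in 3 samples per construct, ATAC-Seq, which maps open chromatin, in 3, and MYC ChIP-Seq in 2.

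CCT takes newly made polypeptides into its central cavity and closes over them while they fold. Actins and tubulins are its best known clients, prefoldin delivers such clients to it, and phosducin-like proteins assist it. Each of the 8 subunits occupies its own place in the ring, so that an intact complex needs every one of them. Several of its genes belong to widely used lists of MYC target genes.

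In the PRO-Seq table the constructs could be told apart by the gene of their product. SMARCB1 had 1 to 6 gene body reads in each of the 6 EGFP and OmoMYC samples and 2870 to 4467 in the SNF5 samples. MYC had 3533 to 3993 gene body reads in EGFP samples, 2599 to 3328 in SNF5 samples and 5066 to 11277 in OmoMYC samples, and reads of the OmoMYC construct cannot be told apart from those of MYC itself in this count. Of the markers for the line, VIM, KRT8 and KRT18 were transcribed in all 9 samples, while PTPRC, a leukocyte gene, had at most 1 gene body read and ALB, a liver gene, at most 8. Gene body reads over all genes numbered 28388012 to 46859674 per sample. Promoter-proximal reads ranged more widely, from 517821 to 671718 in the samples numbered 1 and from 2024662 to 3381189 in those numbered 2 and 3.

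MYC peaks were found at the starts of all 8 genes in the EGFP cells, though not in both samples for each. With a summit within 1 kb of the start counted as a peak, EGFP replicate 2 had a peak at 8 of 8 CCT genes and EGFP replicate 1 at 5 of 8, so that CCT2, CCT3, CCT5, CCT6A and CCT7 carried one in both. Over all symbols of the table the corresponding percentages were 23.2% in replicate 2, 4.35% in replicate 1 and 4.31% in both. In the SNF5 samples, whose lists held 137 and 27 peaks, and in the OmoMYC samples, whose lists held only a placeholder, no CCT gene had a peak. A peak that was not called does not show that MYC was absent. In HEK293 cells without SMARCB1, the study measured MYC by ChIP at single loci. There SNF5 lowered its binding at most of them, and CCT7 was named as the exception. The list of EGFP replicate 1 held 940 peaks and that of replicate 2 held 5396. The lists hold no read counts, and the part of sequencing depth in these numbers was not tested.

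CCT2 had the most enriched peak of the family in EGFP replicate 2, at 15-fold over the local background, which ranked 30 of 5396 in that list. Its summit lay 221 bp past the start, in an intron, and in replicate 1 the summit lay 207 bp past the start with an enrichment of 6.27-fold. The peak of CCT5 stood at 12.6-fold in replicate 2 and 7.27-fold in replicate 1, with summits 295 and 309 bp into the gene. At CCT3 the summits lay upstream, at -99 bp from the start in replicate 2 and at -80 bp in replicate 1, at 11.4-fold and 8.81-fold. These 3 genes had the most enriched MYC peaks of the family in both samples, and in replicate 2 they stood above at least 97.4% of all peaks.

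CCT6A and CCT7 had weaker peaks that were still called in both samples. The CCT6A peak was enriched 7.7-fold in replicate 2, 27 bp past the start, and 3.5-fold in replicate 1, where only 1.17% of peaks were lower. In replicate 1 its summit lay at -105 bp, beside the start of the divergent gene PSPH, which lies 110 bp from that of CCT6A. At CCT7 the peak downstream of the start reached 6.89-fold in replicate 2 and 4.52-fold in replicate 1, and 2 more peaks were called upstream of it in replicate 2, at 5.37-fold and 4.69-fold. CCT4, CCT8 and TCP1 had a peak in replicate 2 alone, at 5.3-fold in the 5′ untranslated exon of CCT4 and 4.92-fold just upstream of CCT8. TCP1 had a pair of such peaks, one of 4.33-fold in an intron 541 bp past its start and one of 4.65-fold at -721 bp, on the side where the divergent gene MRPL18 starts. In replicate 2 these peaks ranked from 768 of 5396 for CCT6A to 4131 for the intronic peak of TCP1.

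Because MYC and its partner MAX recognize the E-box CACGTG and, less strongly, the variant CACGCG, the peaks were searched for both words on both strands. CACGTG was found in the peaks of TCP1 alone, whereas 30.8% of the 4354 replicate 2 peaks with a summit within 1 kb of a start held it. CACGCG was found in peaks of CCT3, CCT5, CCT6A, CCT8 and TCP1, against 40.2% of the same 4354 peaks. The peaks of CCT2, the most enriched of the family, and of CCT4 and CCT7 held neither word. The stretches below are printed to show where these words lie in the peaks of the 2 genes that combine a strong peak with a word, and in the only peak with the canonical word. They are read from GRCh37 on the strand of each gene, 5′ to 3′, with the word in capitals.
CCT3, upstream of the gene, chr1:156308263-156308292: acgttcgcgctgCACGCGgccgggagcggc
CCT5, near the start, chr5:10250340-10250369: cgtcttgtgctgCGCGTGcgcaagcttttg
CCT5, intron, chr5:10250864-10250893: cagcctgacggcCGCGTGggactgcgctcc
TCP1, intron, chr6:160210189-160210218: tgagaccggcaaCGCGTGgatgtggtgtcc
TCP1, intron, chr6:160210119-160210148: ctcccgggctcgCACGTGcgggccacgcct
The word of CCT3 lay at -71 bp from the start, 9 bp from the summit of replicate 1 and 28 bp from that of replicate 2. Those of CCT5 lay 72 and 596 bp past the start, 223 and 301 bp from the summit of replicate 2, and the CACGTG of TCP1 lay 602 bp past its start and 61 bp from the summit. In the RefSeq promoters (GRCh38.p14, from 250 bases before the start to 50 after it), matched for 7 of the 8 genes and not for CCT6A, CACGTG was absent from all 7, and 8.4% of 19005 promoters of that length held it. CCAAT, the box bound by NF-Y, was present on either strand in the promoters of TCP1, CCT2, CCT3 and CCT8, and in 34.4% of all promoters. The word GAANNTTC, also searched with GAA and TTC exchanged, as in the heat shock element, was present in those of TCP1, CCT2 and CCT4, and in 11.2% of all promoters.

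Open chromatin was called at or near the CCT starts whatever the construct. An ATAC-Seq summit lay within 1 kb of the GRCh38 start in all 9 samples for 8 of 8 genes, with the start of CCT6A taken from the RefSeq gene table since its promoter entry was missing. Of the 13295 symbols with a promoter entry, among them 7 of the CCT genes, 28.8% had such a peak in all 9 samples. Among the 10285 of these that passed the minimum of gene body reads, the share was 36.1%. The peak enrichment, given over the local background and taken from the strongest peak within 1 kb, ranged from 5.04-fold at CCT5 in OmoMYC replicate 1 to 12-fold at CCT8 in SNF5 replicate 2. At CCT7 the strongest summit lay upstream, at -849 to -939 bp, and its peak ended 530 to 757 bp short of the start. A peak over the CCT7 start itself was called only in OmoMYC replicate 2, at 4.63-fold, and SNF5 replicate 1, at 4.22-fold. At CCT5 no peak covered the GRCh38 start in any of the 9 samples, and the nearest ended 46 to 259 bp short of it.

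At CCT6A the enrichment was 7.67-fold, 9.35-fold and 8.6-fold in the EGFP samples and 10.2-fold, 9.56-fold and 9.4-fold in the SNF5 samples. At CCT4 it was 7.26-fold, 6.4-fold and 6.28-fold with EGFP and 8.07-fold, 7.54-fold and 8.45-fold with SNF5. In these 2 of the 8 genes all SNF5 samples lay above all EGFP samples, and 24.9% of the 3828 genes with a peak in all samples did so as well. The median enrichment over those genes was also higher in the SNF5 samples, 8.12-fold to 8.82-fold against 7.06-fold to 7.97-fold with EGFP. With OmoMYC the values overlapped those of EGFP at all 8 genes, and of the 3828 genes 1.23% lay lower and 0.287% higher in all OmoMYC samples. These are the peak caller's values from lists without read counts, and the differences were not tested. The number of peaks called moved with them, from 22722 to 33596 with SNF5 against 9208 to 17817 with EGFP, and its part in the enrichment was not tested.

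**Figure D1:**
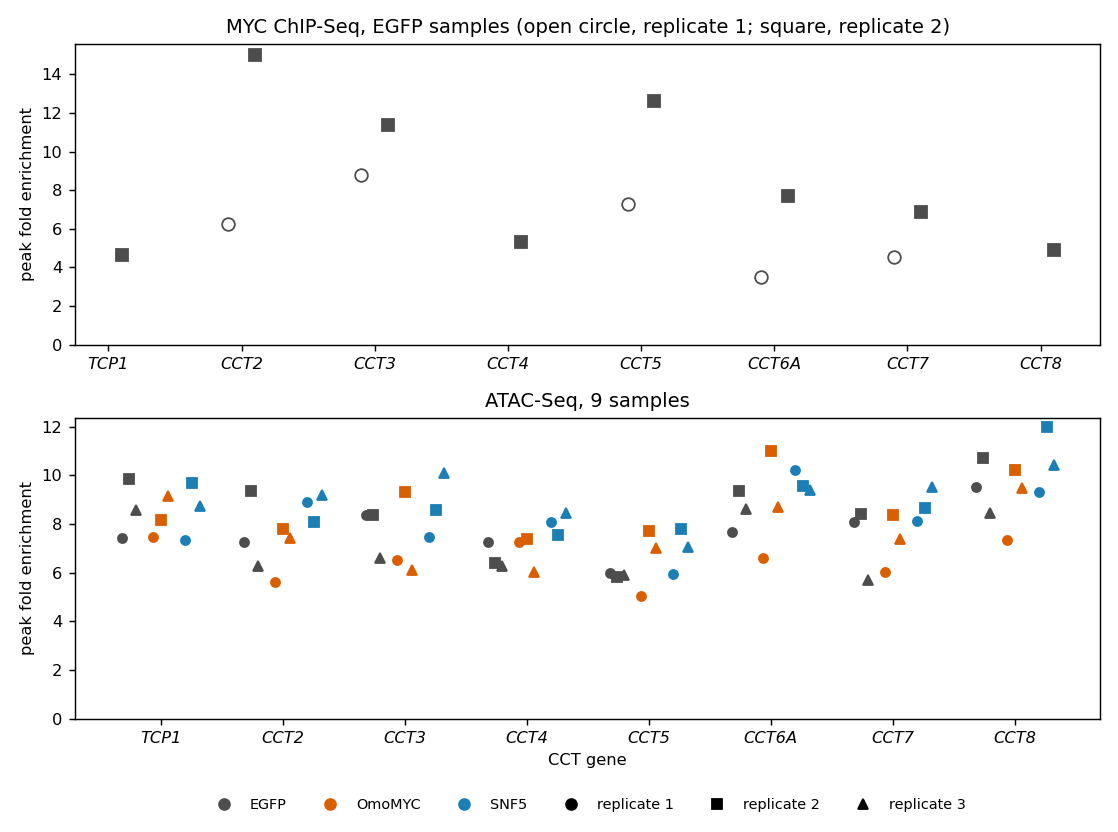
Peak fold enrichment over the local background (vertical axes) of the strongest peak within 1 kb of each CCT gene start, for MYC ChIP-Seq in the EGFP samples (upper panel) and ATAC-Seq in the 9 samples (lower panel). MYC peaks reached 15-fold at CCT2 in replicate 2 and were absent from replicate 1 at TCP1, CCT4 and CCT8. Each gene had an ATAC-Seq summit within 1 kb in every sample.

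Transcription through the CCT genes was high in this line and similar among the subunits. Gene body density, in reads per kb per 1000000 scaled reads, can be compared between genes since it is per length. In EGFP cells it was highest for CCT6A at 10.9 ± 0.602 (SD, n = 3), followed by CCT5 at 10.2 ± 0.179, CCT8 at 9.71 ± 2.58, TCP1 at 8.44 ± 1.06, CCT4 at 7.63 ± 0.261, CCT2 at 7.47 ± 0.975, CCT3 at 6.13 ± 0.333 and CCT7 at 4.79 ± 0.431. The span from CCT6A to CCT7 was 2.28-fold, and even CCT7 had a higher density than 89.7% of the genes that passed the minimum of gene body reads. From CCT6A down to CCT2 each gene overlapped the next over the 3 samples, whereas CCT3 lay below CCT2, and CCT7 below CCT3, without overlap. The span was 2.22-fold in OmoMYC cells and 2.41-fold in SNF5 cells, with CCT7 lowest in both.

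Together the 8 genes had 1026, 1039 and 1072 gene body reads per 1000000 scaled reads in EGFP replicates 1, 2 and 3. The sums were 831, 778 and 1005 in the OmoMYC samples and 917, 843 and 973 in the SNF5 samples. Every sample with OmoMYC or SNF5 thus lay below every EGFP sample, with replicate 3 of each construct nearest to it.

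TCP1 (chr6:160199530-160210735 in hg19, minus strand), the alpha subunit, had gene body densities of 8.43, 9.51 and 7.39 in EGFP replicates 1, 2 and 3. The values were 5.64, 5.45 and 6.66 with OmoMYC and 7.05, 6.32 and 6.58 with SNF5. All samples of both constructs lay below the lowest EGFP sample. The fall was 0.51 ± 0.11 (SE) on the log2 scale with OmoMYC, to 0.703 of the EGFP level, and 0.34 ± 0.11 with SNF5, to 0.788. With edgeR's quasi-likelihood test the adjusted p was 0.032 and 0.039, respectively.

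CCT6A (chr7:56119378-56131682, plus strand), the zeta subunit, had densities of 10.9, 11.5 and 10.3 with EGFP, 7.83, 7.13 and 9.29 with OmoMYC, and 9.17, 8.08 and 9.65 with SNF5. Again neither construct overlapped EGFP. The gene fell by 0.44 ± 0.09 on the log2 scale with OmoMYC (edgeR, adjusted p = 0.030) and by 0.29 ± 0.09 with SNF5 (adjusted p = 0.040). TCP1 and CCT6A, the 2 genes with the largest fall in both comparisons, are also the 2 members that hold snoRNA genes on the same strand, SNORA20 and SNORA29 in TCP1 and SNORA22 and SNORA15 in CCT6A, and the part of these in the counts was not tested. CCT6A has the close paralog CCT6B and pseudogene copies, so the share of its reads lost or gained through the mapping quality filter is uncertain.

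CCT3 (chr1:156278752-156308206, minus strand), the gamma subunit, had densities of 6.37, 5.75 and 6.28 with EGFP, 5.31, 4.65 and 5.66 with OmoMYC, and 5.39, 4.54 and 5.79 with SNF5. The OmoMYC samples lay below all EGFP samples, and 1 SNF5 sample reached into the EGFP range. It was the only other gene called lower with both constructs, by 0.24 ± 0.06 on the log2 scale with OmoMYC (edgeR, adjusted p = 0.038) and by 0.23 ± 0.06 with SNF5 (adjusted p = 0.013). CCT4 (chr2:62095262-62115806, minus strand), the delta subunit, had densities of 7.89, 7.63 and 7.37 with EGFP, 6.15, 5.64 and 6.72 with OmoMYC, and 6.95, 6.50 and 6.94 with SNF5. Both sets lay below EGFP without overlap. The fall with OmoMYC was 0.31 ± 0.06 (edgeR, adjusted p = 0.030), and the difference of -0.17 ± 0.06 with SNF5 did not pass the threshold (adjusted p = 0.072).

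CCT7 (chr2:73461364-73480150, plus strand), the eta subunit, had densities of 4.91, 4.31 and 5.15 with EGFP, 4.06, 3.45 and 4.76 with OmoMYC, and 4.28, 3.64 and 4.31 with SNF5. The OmoMYC samples overlapped those of EGFP, and the highest SNF5 sample lay below the lowest EGFP sample by less than the digits shown. The log2 difference was -0.23 ± 0.06 with each construct, past the threshold with SNF5 (edgeR, adjusted p = 0.021) and not with OmoMYC (adjusted p = 0.055). CCT8 (chr21:30428648-30446010, minus strand), the theta subunit, differed more between replicate numbers than between constructs, with 7.98, 8.47 and 12.7 with EGFP, 7.08, 7.38 and 12.8 with OmoMYC, and 7.19, 7.19 and 10.4 with SNF5. Replicate 3 was the highest sample for this gene with each construct. It was called lower with SNF5, by 0.22 ± 0.07 on the log2 scale (edgeR, adjusted p = 0.032), and the difference with OmoMYC was -0.12 ± 0.07 (adjusted p = 0.29).

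CCT2 (chr12:69979208-69995357, plus strand) and CCT5 (chr5:10250282-10266501, plus strand), the beta and epsilon subunits, passed the threshold in neither comparison. Their MYC peaks were the 2 most enriched of the family in EGFP replicate 2. CCT2 had densities of 6.96, 8.6 and 6.86 with EGFP, 6.29, 6.10 and 6.22 with OmoMYC, and 7.12, 6.99 and 6.28 with SNF5. Its OmoMYC samples lay below all EGFP samples, with a log2 difference of -0.26 ± 0.08 (edgeR, adjusted p = 0.072), and its SNF5 samples overlapped them, at -0.13 ± 0.08 (adjusted p = 0.22). CCT5 had 10.4, 10.1 and 10.1 with EGFP, 8.55, 8.18 and 9.93 with OmoMYC, and 9.87, 9.36 and 10.2 with SNF5. Here too the OmoMYC samples lay just below all EGFP samples, at a log2 difference of -0.20 ± 0.06 (edgeR, adjusted p = 0.075). With SNF5 the difference was -0.06 ± 0.06, the smallest of the family (adjusted p = 0.50).

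**Figure D2:**
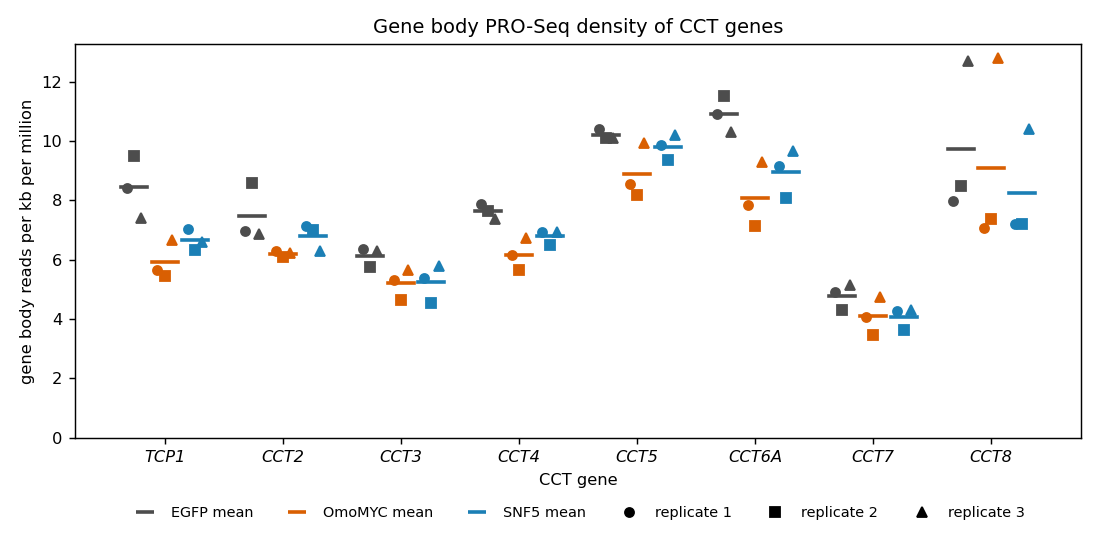
Gene body density in reads per kb per 1000000 scaled reads (vertical axis) of the 8 CCT genes in each of 9 PRO-Seq samples, with horizontal bars for the mean of each construct. The EGFP mean is the highest of the 3 for each gene, from 4.79 for CCT7 to 10.9 for CCT6A, and CCT8 stands apart in replicate 3.

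Counted over the family, gene body reads were called lower for 4 of 8 genes with OmoMYC (TCP1, CCT3, CCT4 and CCT6A), where 4.42% of the 15060 genes tested were called lower. With SNF5 they were called lower for 5 of 8 (TCP1, CCT3, CCT6A, CCT7 and CCT8), where the background was 16.5%. No member was called higher, where 4.1% of all genes were with OmoMYC and 17.6% with SNF5, and in either direction 8.53% and 34.1% of genes were called. Scaled by gene body totals alone, the calls over all genes with OmoMYC were 418 lower and 828 higher, compared with 666 and 618 here, and 3 members were called lower. The median log2 difference of the 8 genes was -0.25 with OmoMYC and -0.23 with SNF5, against medians of 0 and -0.03 over all genes tested. The 2 comparisons share the EGFP samples, so they are not independent of each other. All OmoMYC samples lay below all EGFP samples for 6 of 8 members and for 5.46% of all genes, and all SNF5 samples did so for 4 of 8 members and 8.07% of all genes. In such bulk samples, scaled to their own totals, fewer cells that transcribe a gene and less transcription per cell cannot be told apart.

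These calls rest on the comparison within replicate numbers. Samples with the same number deviated together, and the study accounted for a batch effect in its own test, so the number was kept as a block. Without the block 0 of 8 genes were called with either construct, and over all genes 1.49% with SNF5 and 0.00664% with OmoMYC were called in either direction. Leaving out a single library also moved the counts. With OmoMYC, 0 members were called without EGFP replicate 1, EGFP replicate 2, OmoMYC replicate 1 or OmoMYC replicate 2, 2 were called without SNF5 replicate 1 or 2, and 7 without OmoMYC replicate 3 or SNF5 replicate 3. Over all genes, 0 were called lower in each of the fits that gave 0 members, 5 to 9 were called in all, 3.56% and 3.81% were called in those that gave 2, and 15.1% and 23.6% in those that gave 7. With SNF5, 0 were called without EGFP replicate 1, EGFP replicate 2 or SNF5 replicate 2, 1 without SNF5 replicate 1, and 3 without OmoMYC replicate 1, OmoMYC replicate 2 or SNF5 replicate 3. Here many other genes were still called: 18.5%, 17% and 19.8% of all genes in the fits that gave 0 members, 23.2% in the fit that gave 1, and 28%, 28.3% and 39.3% in those that gave 3. All 320 gene body differences from EGFP recomputed under the alternatives were below 0. These refits draw on the same 9 samples, so they are not independent of each other.

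Within replicate numbers the size of the fall was uneven. With OmoMYC, 8 of 8 members were below EGFP in replicate 1, 8 in replicate 2 and 7 in replicate 3, with medians of -0.28, -0.38 and -0.14 on the log2 scale. TCP1 differed by -0.58, -0.80 and -0.15 in the 3 replicates and CCT6A by -0.48, -0.69 and -0.15, while CCT8 differed by -0.17, -0.20 and 0.01. With SNF5, 7, 8 and 7 members were below EGFP, with medians of -0.19, -0.27 and -0.12. Replicate 2 gave the lowest median and replicate 3 the least negative one with both constructs. Over all genes the percentage below EGFP in any 1 replicate was between 49.6% and 53.9%. In all 3 replicates, 7 of 8 members were below EGFP with OmoMYC, as were 27.5% of all genes, and 6 of 8 with SNF5, as were 31.6%.

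**Figure D3:**
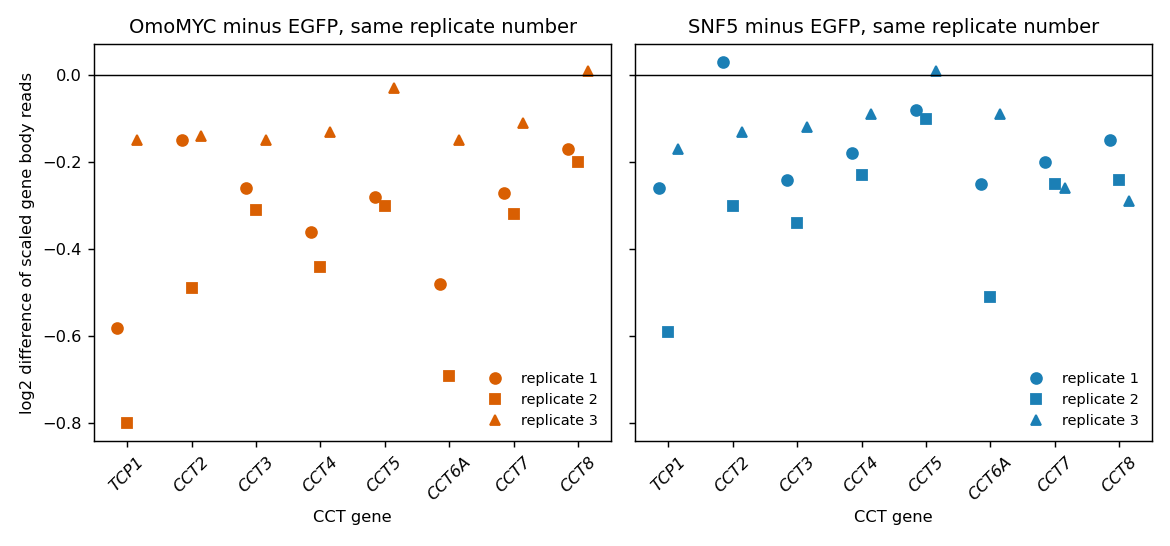
Log2 difference of scaled gene body reads (vertical axes) between OmoMYC and EGFP (left) and between SNF5 and EGFP (right) within replicates 1, 2 and 3, for the 8 CCT genes. All but 3 points lie below 0, TCP1 and CCT6A reach -0.80 and -0.69 with OmoMYC in replicate 2, and the OmoMYC points of replicate 3 lie between -0.15 and 0.01.

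SNF5 and OmoMYC were then compared with each other. No CCT gene differed between them in gene body reads with edgeR or with DESeq2, and 1 of 8, CCT5, had an unadjusted edgeR p below 0.05. TCP1, the member with the largest difference, stood 0.17 ± 0.11 higher with SNF5 on the log2 scale (95% interval -0.08 to 0.42, adjusted p = 0.32). CCT5 stood 0.14 ± 0.06 higher (0 to 0.29, adjusted p = 0.14), and CCT8 was at -0.11 ± 0.07 (-0.26 to 0.05, adjusted p = 0.30). CCT3 and CCT7 differed by 0.01 ± 0.06 (-0.12 to 0.13) and 0 ± 0.06 (-0.14 to 0.14). In this comparison 18.9% of all genes were called. When the samples numbered 3 were left out, 5 of 8 members (TCP1, CCT2, CCT4, CCT5 and CCT6A) were called higher with SNF5 than with OmoMYC, where 41.7% of all genes were called, 3270 of 14939 higher. When OmoMYC replicate 3 alone was left out, 1 member, CCT5, was called, as were 15% of all genes.

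The presence of a MYC peak in both EGFP samples did not sort the members by their change. The 3 members without it had a peak in EGFP replicate 2 alone, so this does not part bound from unbound genes. Of the 5 CCT genes with such a peak, 2 were called lower with OmoMYC (CCT3 and CCT6A), as were 2 of the 3 without (TCP1 and CCT4), and their median log2 differences were -0.24 and -0.31. Over all tested genes, 19.1% of the 832 with a peak in both samples and 3.56% of the other 14228 were called lower with OmoMYC, with medians of -0.15 and 0.01. With SNF5 the same percentages were 41.5% and 15%, the medians -0.20 and -0.01, and the members were called in 3 of 5 and 2 of 3 cases.

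At the promoter the picture differed from that of the gene body. Promoter-proximal reads are counted in a 50 bp window, placed where reads are densest no farther than 500 bp from the start, and stem largely from polymerase that pauses before its release into the gene. No CCT gene was called in any comparison by edgeR or DESeq2, and none had an unadjusted edgeR p below 0.05. The background was 1.80% of 11241 genes with OmoMYC, 4.27% with SNF5 and 0.827% between the 2. The log2 differences from EGFP ran from -0.36 ± 0.21 (CCT3) to 0.37 ± 0.24 (CCT5) with OmoMYC, and from -0.30 ± 0.21 (CCT3) to 0.38 ± 0.24 (CCT5) with SNF5. Their medians were 0.11 and 0, beside 0.13 and -0.05 over all genes. When each region was scaled by its own counts, the median with OmoMYC was -0.03 for the members, 5 of them below 0 instead of 1, and -0.03 for all genes. The standard errors were 0.21 to 0.24, compared with 0.06 to 0.11 in the gene body. Most changes of the size seen in the gene body thus could not be told from 0 here. Under the main scaling, the promoter interval for TCP1 with OmoMYC was -0.44 to 0.46, above its gene body difference of -0.51. That for CCT6A was -0.15 to 0.81, above -0.44. The same held for CCT5 and CCT7, and not for CCT2, CCT3, CCT4 and CCT8. For SNF5, each member's promoter interval included its gene body difference. CCT5, with the fewest promoter-proximal reads, had 21, 76 and 60 in the EGFP samples, and CCT7, with the most, had 135, 1110 and 716.

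The pausing index, promoter-proximal density over gene body density, separated the subunits far more than their gene body density did. In EGFP cells its mean was 83.1 for CCT7, 32.6 for CCT4, 28.5 for CCT3, 23.2 for TCP1, 15.8 for CCT2, 9.76 for CCT8, 3.01 for CCT6A and 2.94 for CCT5, a span of 28.3-fold. CCT7 was thus the member with the least polymerase in its gene body and the most at its promoter. The values spread widely over the samples: for CCT7 they were 15.9, 173 and 60.1 in EGFP replicates 1, 2 and 3, and for CCT5 1.17, 5.08 and 2.56. Of neighbours in this order, CCT8 and CCT6A alone had ranges that did not overlap. Compared within each EGFP sample, CCT7 exceeded CCT4 in 3 of 3, by a mean of 1.26 ± 0.48 (SD) on the log2 scale, and CCT8 exceeded CCT6A in 3 of 3 by 1.62 ± 0.24. The order also held in 3 of 3 samples for CCT4 over CCT3, by 0.18 ± 0.11, and for TCP1 over CCT2, by 0.61 ± 0.24. CCT3 and TCP1, CCT2 and CCT8, and CCT6A and CCT5 each kept their order in 2 of 3 samples, with differences smaller than their SD. CCT5 and CCT6A stood lower in pausing index than most genes that passed the minimum of gene body reads, with 12.2% and 12.4% below them. That set includes genes under the promoter minimum.

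The pausing index was tested as the interaction of region and construct. No CCT gene passed the threshold in any of the 3 comparisons with edgeR or DESeq2, where 2.26% of 11171 genes were called with OmoMYC, 3.66% with SNF5 and 1.23% between the 2. With OmoMYC, 4 members had an unadjusted edgeR p below 0.05 (TCP1, CCT5, CCT6A and CCT7), and in the other comparisons none had. CCT6A had pausing indices of 1.90, 4.33 and 2.81 with EGFP and 2.81, 11.8 and 3.23 with OmoMYC. It was higher with OmoMYC in each replicate number, though the ranges overlapped, with a log2 difference of 0.77 ± 0.26 (95% interval 0.26 to 1.28) and an adjusted p of 0.091 by edgeR. The median log2 difference of the 8 genes was 0.45 with OmoMYC and 0.23 with SNF5, against 0.14 and 0.01 over all genes. With each region scaled by its own counts, the medians with OmoMYC were 0.30 for the members and -0.01 for all genes. The members' median with SNF5 was 0.08 without the samples numbered 2 and 0.45 without those numbered 3. When the samples numbered 3 were left out, CCT6A was called with OmoMYC, as were 8.62% of all genes. The samples numbered 1 had 517821 to 671718 promoter-proximal reads in all, the fewest, and also the lowest pausing index for each CCT gene with each construct, and the part of that depth in the index was not tested.

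**Figure D4:**
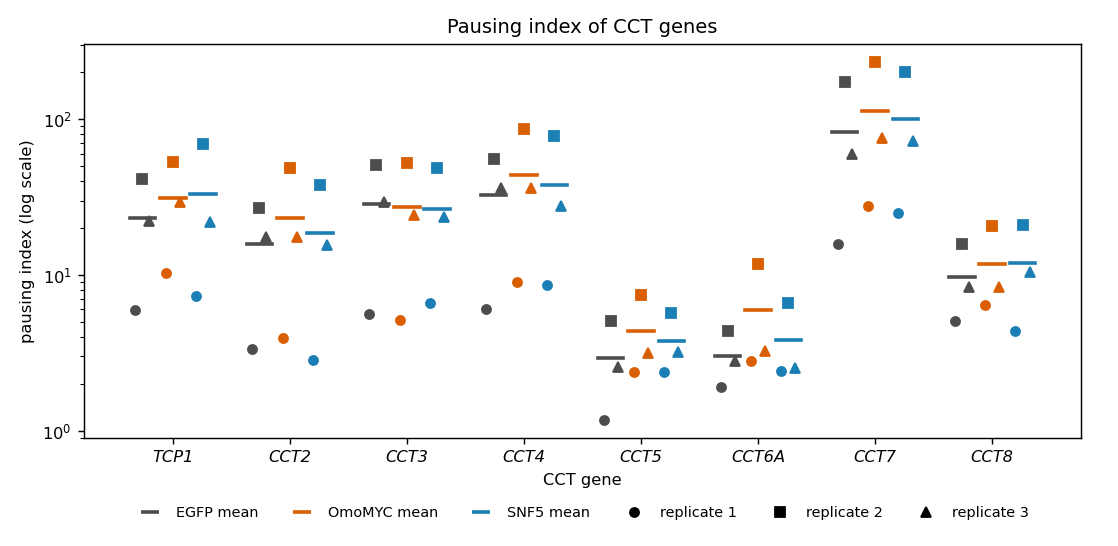
Pausing index (promoter-proximal density over gene body density, log scale) of the 8 CCT genes in each of 9 PRO-Seq samples, with horizontal bars for the mean of each construct. Means in EGFP cells span from 2.94 for CCT5 to 83.1 for CCT7, replicate 2 is the highest sample for each gene and construct, and the constructs overlap for each gene.

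By the starts listed for PRO-Seq, 3 genes begin within 1 kb of a CCT gene on the opposite strand. MRPL18, which encodes a mitochondrial ribosomal protein and starts 757 bp from TCP1, had gene body densities of 4.43, 4.11 and 3.86 with EGFP, 3.34, 3.29 and 3.53 with OmoMYC and 3.61, 3.74 and 3.30 with SNF5. Its samples did not overlap EGFP with either construct, at log2 differences of -0.28 ± 0.08 with OmoMYC (edgeR, adjusted p = 0.069) and -0.22 ± 0.08 with SNF5 (adjusted p = 0.073). FAM173B starts 268 bp from CCT5 and was called lower with SNF5, at -0.34 ± 0.09 (edgeR, adjusted p = 0.019), where CCT5 itself was at -0.06. With OmoMYC it was at -0.24 ± 0.09 (adjusted p = 0.13). PSPH, the phosphatase of the last step of serine synthesis, starts 110 bp from CCT6A and had differences of -0.07 ± 0.08 with OmoMYC and -0.17 ± 0.08 with SNF5 (adjusted p = 0.60 and 0.11). By GENCODE starts, COMMD1 also begins beside CCT4 on the opposite strand, at chr2:62115859, and PRADC1 near CCT7, at chr2:73460367. Neither is reported here. GENCODE also places the start of MRPL18 closer to TCP1, at chr6:160210844. Whether partners differ from their CCT gene was not tested.

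The partners, clients and relatives of CCT were compared in gene body reads unless stated otherwise. Few genes of the prefoldin and phosducin-like list passed the test. Of 8 tested genes 1 was called lower with SNF5, PFDN2, a prefoldin subunit, at -0.29 ± 0.08 on the log2 scale (edgeR, adjusted p = 0.025), and 0 with OmoMYC by edgeR or DESeq2, where 1 had an unadjusted edgeR p below 0.05 and the median was -0.04. Of 11 tubulin and actin genes, TUBA1B and TUBB4B were called lower with both constructs. TUBA1B, an alpha tubulin, differed by -0.37 ± 0.09 with OmoMYC and -0.33 ± 0.09 with SNF5, and TUBB4B, a beta tubulin, by -0.35 ± 0.08 and -0.31 ± 0.08. TUBB6 and TUBA1C, named after their values were seen, were called higher with SNF5 at 0.16 ± 0.05 and 0.23 ± 0.06, 2 of 11 each way, where the shares over all genes were 16.5% lower and 17.6% higher. At the promoter, 4 of 10 tested genes of this list were called higher and 1 lower with SNF5, where 4.27% of all genes were called. TUBA1B was among the 4, at 1.06 ± 0.23 (edgeR, adjusted p = 0.0054). With OmoMYC it was the only one called, at 0.85 ± 0.23 (adjusted p = 0.047), where 1.80% of all genes were. Its pausing index was called higher with both constructs. TUBB4B was called in neither measure. Tubulin genes are close paralogs, and reads that fit several of them may be split or lost.

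The tubulin folding cofactors act on tubulins that CCT releases. Of 6 tested, 3 were called lower with SNF5: TBCC, at -0.67 ± 0.16, TBCB, at -0.26 ± 0.08, and TBCD, named after its values were seen, at -0.25 ± 0.05. With OmoMYC 0 of 6 were called by edgeR or DESeq2, and 2 had an unadjusted edgeR p below 0.05. Of 17 other known substrates, 6 were called lower and 1 higher with SNF5. MLST8, a WD40 protein of the mTOR complexes that CCT folds, had the largest change, at -0.68 ± 0.12 (edgeR, adjusted p = 0.0037), followed by GNB2, a G protein beta subunit, at -0.35 ± 0.08 (adjusted p = 0.011), and the 1 called higher was GNB4, named after its values were seen, at 0.24 ± 0.06. With OmoMYC 0 of 17 were called by edgeR and 2 by DESeq2, 7 had an unadjusted edgeR p below 0.05, and the median was -0.07.

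Among relatives of CCT, of which 5 were tested, HSPD1, the mitochondrial chaperonin, was called lower with OmoMYC at -0.45 ± 0.11 (edgeR, adjusted p = 0.038) and was at -0.18 ± 0.10 with SNF5 (adjusted p = 0.21). BBS10, a chaperonin-like protein of the cilium, was called higher with SNF5 at 0.41 ± 0.14 (adjusted p = 0.045). Of 12 cytosolic heat shock chaperones tested, 4 were called lower with OmoMYC and 6 with SNF5. BAG3, named after its values were seen, was the 1 called higher with SNF5. AHSA1, the activator of the HSP90 ATPase, fell with both, by 0.42 ± 0.07 with OmoMYC and by 0.36 ± 0.07 with SNF5, and DNAJB1, a partner of HSP70, fell with SNF5 by 0.40 ± 0.08 (edgeR, adjusted p = 0.0065) and was at -0.30 ± 0.08 with OmoMYC (adjusted p = 0.054). The medians of this list were -0.24 with OmoMYC and -0.20 with SNF5, beside -0.25 and -0.23 for the CCT genes themselves. None of these lists was tested as a set, and the backgrounds are the 4.42% and 16.5% of genes called lower that apply to the CCT genes.

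The 6 within-replicate differences from EGFP, averaged over the 8 CCT genes, were -0.32, -0.44 and -0.11 with OmoMYC and -0.17, -0.32 and -0.14 with SNF5. Among 12162 genes with a mean of at least 100 gene body reads, the genes closest to that profile by root mean square distance included SNRNP40, at 0.0137, KPNB1, at 0.0197, and RSL1D1, at 0.0356, where the median distance of all genes was 0.314. SNRNP40 is a component of the spliceosome, KPNB1 is importin beta, and RSL1D1 is a nucleolar protein. Of the members, CCT4 lay nearest to the family mean, at 0.0477 (rank 16 of the 12162), and TCP1 farthest, at 0.217 (rank 3122). Many other genes thus lay nearer to this profile than some of the members did.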

How the data were processed

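PRO-Seq counts in G401 cells came from the table the authors deposited. They trimmed reads with cutadapt, discarded reads of 15 bp or less, reverse-complemented the rest, mapped them with Bowtie2 to hg19, and left out rRNA reads and those with mapping quality below 10. NRSA then gave counts per RefSeq transcript for a promoter-proximal window and for the gene body, which begins 1 kb past the start. The deposited gene body signal, a density in reads per bp, served only to obtain gene body length. The authors called MYC peaks (hg19, q-value 0.01) and ATAC-Seq peaks (hg38, q-value 0.001) with MACS2 in each sample. In the deposited peak lists, enrichment is a fold ratio (peak over local background) and p- and q-values are on the −log10 scale. The 2 OmoMYC lists of MYC ChIP-Seq held a placeholder, which was dropped. The tools cutadapt, Bowtie2, MACS2, DiffBind and HOMER are named in the submitters' processing notes. The 6 IgG samples were not used here. For PRO-Seq, several plates of a condition were pooled before nuclei were made. The study describes its PRO-Seq and ChIP-Seq replicates as separate experiments. With replicate number as a block, the p-values measure how construct differences vary between numbers. They leave out the spread that samples of the same number share.

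Counts were tested with edgeR 4.0.16 (quasi-likelihood) in R 4.3.3 on all genes with a mean of at least 10 counts, with 1 transcript per symbol (the one with most gene body reads), replicate number as a block, and gene body totals times RLE factors as offsets for both regions. P-values were adjusted by Benjamini-Hochberg at 0.05 over all genes tested. Standard errors were taken from the log2 difference and its F statistic, and 95% intervals use the t quantile at the test's degrees of freedom. Change of the pausing index was the interaction of region and construct with a term per sample. Deviations of same-numbered samples from their construct means correlated at 0.88 to 0.942 in gene bodies and 0.743 to 0.9 at promoters, over 9 pairs each, and those of other numbers at -0.774 to 0.281 and -0.728 to 0.107, so the numbers were taken as pairs. Promoter sequences and GRCh38.p14 starts are from RefSeq, places of summits from GENCODE release 44 on GRCh37, and no coordinate was converted. Scripts were tested on simulated data. Named genes were all 8 members, SMARCB1 and MYC, genes that start within 1 kb on the opposite strand in the PRO-Seq table, the 2 largest called changes per list, and the 5 genes nearest in profile, 2 of which are not reported here. The members and lists were chosen with earlier results of these data known. DESeq2 1.42.0, TMM scaling, other filters, no block and samples left out were tried as alternatives.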

Additional observations from a re-analysis of the deposited data

How the results depend on the processing

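The gene body calls stood close to the threshold, and their number moved with the samples and the block more than with the scaling or the tool. With SNF5, where 5 of 8 CCT genes were called, the count was 3 with a minimum mean of 50 counts. At that minimum 32.9% of all genes were called, against 34.1% in the main fit. Without the replicate block the count was 0, as it was with OmoMYC, where 4 had been called. The block fit is the one reported because the replicate numbers pair the samples, and it changed no other count. With 1 replicate number or library left out, the counts ran from 0 to 7 with SNF5, from 0 to 8 with OmoMYC and from 0 to 5 between SNF5 and OmoMYC, and the pausing index with OmoMYC gave 0 to 1. The counts of 7 and 8 came without the samples numbered 3, where 56.8% and 45% of all genes were called. Without those numbered 1 or 2, 0 members were called with either construct. Over all genes, 11% and 9.56% were then called with SNF5, and 0.0132% and 0.0134% with OmoMYC. The library-by-library fits were chosen after the effect of whole replicate numbers was seen. MYC peaks in the EGFP samples were counted at 5 to 8 genes with either sample alone, and at 4 with a q-value of 0.0001. ATAC-Seq peaks in all 9 samples were found at 4 of 8 genes with a q-value of 1e-10. The share over all genes is not given at these stricter q-values. Of 1056 values of single genes under alternatives, 952 kept their side of the threshold, 76 stopped being called and 28 came to be called. Only gene body calls against EGFP could be lost, since no other value was called in the main fits. Most of the 952 were thus called under neither setting and say little of how stable the calls were. No called value turned its direction, and 69 values that were called under neither setting changed sign. The cause of these shifts was not tested. The standard errors of 0.21 to 0.24 limit what can be seen at promoters, and the peak lists hold no read counts.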
